A study of Mus musculus with 8 samples.

Results

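Imprinted genes, which are read mainly or only from the copy inherited from 1 parent, were followed in the RNA of E15.5 fetal mouse brains after prenatal stress. The set was a list of 38 gene symbols from 16 loci, each of which matched 1 of the 54752 genes in the count tables. By textbook knowledge 14 of them are expressed from the maternal copy, 21 from the paternal copy and 3 (*Gnas*, *Grb10* and *Inpp5f*) from either copy depending on the transcript. The counts themselves do not tell the parental copies apart, so "maternally expressed" and "paternally expressed" below are names of gene classes and not measurements. All brains came from wild type fetuses of the strain C57BL/6, which the study's methods give as C57BL/6Slac. In the stress group the pregnant dam had been exposed to chronic unpredictable mild stress (CUMS), a daily change of mild stressors, from E5.5 to E14.5, and in the control group the dam was left without CUMS. Each group had 4 brains, 2 of females and 2 of males, and each brain gave its own poly(A) RNA-seq library. They were control females F36 and F37, control males M30 and M31, stress females F34 and F35, and stress males M28 and M29. By the study's sample sheet the 4 control brains were littermates and the 4 stressed brains came from 1 other litter, so litter and stress cannot be told apart here, and p-values measure only the spread among littermates.

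Imprinting rests on DNA methylation that is laid down in the egg or the sperm and kept on 1 parental copy after fertilisation. Many of these genes sit in clusters where a long noncoding RNA and its protein-coding neighbours are expressed from opposite copies. As background, several paternally expressed genes favour fetal growth and several maternally expressed genes restrain it, and in the brain members act in neurogenesis, hormone control by the hypothalamus and behaviour. ZFP57, a zinc finger protein that with its partner TRIM28 keeps the methylation of imprinting control regions, reads the hexamer TGCCGC when its CpG is methylated.

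To show what the starts of these genes look like, windows from 250 bases before to 50 bases after each annotated start were taken from RefSeq on GRCm38.p6, and 32 of the 38 members matched an entry. *Cdkn1c*, *Sgce*, *Rtl1*, *Peg10*, *H19* and *Impact* had none. TGCCGC was searched on both strands, where it reads as GCGGCA on the opposite strand, and no other motif was searched. At least 1 match stood in a window of 11 of the 32 members (34.4%), against 13.1% of all 27025 genes with a window and 21.5% of the 12321 of those that were tested for stress. *Snrpn* and *Snurf* share the window that holds their match (chr7:60005150-60005449), so this sequence is counted for both. Of the 10 members with a window that were called for stress below, 7 held the hexamer (*Mest*, *Copg2*, *Plagl1*, *Grb10*, *Meg3*, *Zim1* and *Nap1l5*), and of the 18 members that were tested but not called, 3 did (*Nnat*, *Snrpn* and *Igf2*). Over all genes tested with a window, the shares were 26.4% of the genes called and 20.7% of the genes not called. These counts were not tested, and a match is only a run of letters.

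The windows of 4 called members are printed 5′ to 3′ on the strand of the gene, in lower case, with each hexamer in capitals. *Mest* and *Plagl1* were higher in stressed brains and *Meg3* and *Nap1l5* were lower. For *Mest* and *Meg3*, which have other annotated starts as well, the printed window is the first of those with the most hexamers. Of 3 *Mest* windows 2 hold it and the other, with 8 CpG, has no match. Those 2, the printed one and chr6:30737803-30738102, overlap almost fully, so they are not separate sequences. Of 2 *Meg3* windows 1 holds it and the other, with 1 CpG, has none. The printed *Mest* window lies at chr6:30737800-30738099 on the plus strand and the *Plagl1* window at chr10:13090582-13090881 on the plus strand. That of *Meg3* lies at chr12:109540746-109541045 on the plus strand, and that of *Nap1l5* at chr6:58907077-58907376 on the minus strand.
Mest: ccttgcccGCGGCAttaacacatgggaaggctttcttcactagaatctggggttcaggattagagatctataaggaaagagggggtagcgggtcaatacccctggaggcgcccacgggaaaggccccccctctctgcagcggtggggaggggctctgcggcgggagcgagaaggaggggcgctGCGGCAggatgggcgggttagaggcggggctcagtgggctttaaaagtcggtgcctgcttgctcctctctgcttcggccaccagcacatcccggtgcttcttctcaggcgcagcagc
Plagl1: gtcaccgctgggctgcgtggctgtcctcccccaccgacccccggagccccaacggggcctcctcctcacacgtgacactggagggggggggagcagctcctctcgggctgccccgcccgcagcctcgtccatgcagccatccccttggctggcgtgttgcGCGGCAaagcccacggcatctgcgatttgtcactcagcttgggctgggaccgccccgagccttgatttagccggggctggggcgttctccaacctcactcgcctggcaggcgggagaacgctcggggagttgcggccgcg
Meg3: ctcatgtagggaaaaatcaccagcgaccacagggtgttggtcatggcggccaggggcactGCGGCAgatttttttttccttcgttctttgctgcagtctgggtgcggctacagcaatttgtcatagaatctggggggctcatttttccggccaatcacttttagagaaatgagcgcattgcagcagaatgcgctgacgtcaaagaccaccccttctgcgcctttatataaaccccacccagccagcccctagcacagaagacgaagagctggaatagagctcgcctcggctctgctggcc
Nap1l5: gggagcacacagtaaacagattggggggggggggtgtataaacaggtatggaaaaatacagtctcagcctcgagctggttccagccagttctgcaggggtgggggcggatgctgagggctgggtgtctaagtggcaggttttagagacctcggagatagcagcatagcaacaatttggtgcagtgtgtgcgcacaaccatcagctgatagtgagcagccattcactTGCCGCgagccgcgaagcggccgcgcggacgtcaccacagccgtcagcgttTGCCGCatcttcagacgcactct
The printed windows held 17 CpG dinucleotides for *Mest*, 26 for *Plagl1*, 13 for *Meg3* and 17 for *Nap1l5*. *Mest* and *Nap1l5* held the hexamer at 2 places and the other two at 1 place.

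Library totals were between 25320109 and 29105710 counts with no difference found between control and stress (two-sided exact permutation test, p = 0.886). Of all genes, 17865 had enough counts for edgeR's filter (at least 10, set by group), and the quasi-likelihood test of edgeR was run on them in a model of sex and condition. The level of a gene is given as CPM, its count relative to the TMM-scaled total of the brain,, the difference as Log2FC (stress vs. control) with its standard error (SE), and Padj is the Benjamini-Hochberg adjusted p over all genes tested. Called means a Padj under 0.05. The labelled tissue was checked on marker lists, of which the neuronal genes summed to between 6848 and 7268 CPM and the radial glial genes to between 1575 and 1737 CPM in every brain. In bulk RNA, fewer cells of a type and less RNA per cell cannot be told apart.

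Of the 38 members, 34 passed the filter. *Phlda2*, a placental growth restrainer, had 0 to 2 counts per brain. *Slc22a18*, a transporter of the same cluster, had 2 to 10 counts, and *Ascl2*, a transcription factor of the placenta, had 1 to 14. *Snurf* had 0 counts in all 8 brains. All of its 216 exon bases on chromosome 7 (59995449 to 60005049, mm10, minus strand) are also exons of *Snrpn*, and with the counter's default setting a read pair that hits several genes alike is left out, so the 0 says nothing of the level of *Snurf*. Together the 38 members took between 0.930% and 0.972% of all counts of a brain.

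Per kilobase of exon, levels differed widely, as the plot of levels by gene shows. *Nnat*, a small membrane proteolipid gene of developing neurons, was highest, with a control level of 1387 ± 38.8 CPM per kb (SD, n = 4). It was followed by *Ndn*, a growth-restraining MAGE gene of neurons, at 178 ± 2.13 CPM per kb, by the long noncoding RNA *Meg3* at 150 ± 3.68 and by *Snrpn*, a splicing protein gene, at 112 ± 1.91. The control ranges of these 4 genes did not overlap. *Blcap* (54.6 ± 0.712 CPM per kb) and *Inpp5f* (54.6 ± 0.992 CPM per kb), next to each other in this order, did not differ beyond their spread. The order depends on the length used: per kb of the exon bases that no other gene covers, a measure chosen after seeing the data, *Snrpn* (169 ± 2.90 CPM per kb) stood above *Meg3* (164 ± 4.01), and *Inpp5f* (56.5 ± 1.03) above *Blcap* (54.6 ± 0.712). *Nnat* and *Ndn* kept the highest levels on both lengths. At the low end among tested members stood *Airn* at 0.364 ± 0.0963 CPM per kb and *Igf2* at 0.119 ± 0.0261. Per kb of uncovered bases *Igf2* was at 0.334 ± 0.0735, and its control range (0.251 to 0.399) overlapped that of *Airn* (0.225 to 0.444).

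**Figure D1:**
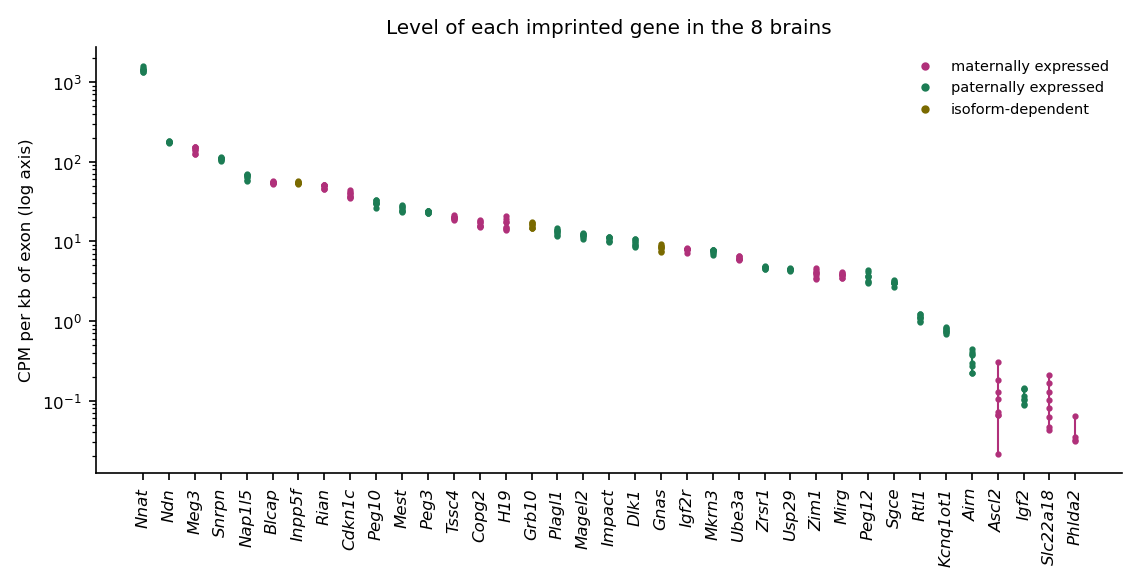
Level of the members in CPM per kb of exon (log axis), one point per brain and a line from the lowest to the highest of the 8 brains, coloured by parental class. *Nnat* stands highest, the members below the filter stand near the low end, brains with 0 counts are not drawn and *Snurf*, at 0 in every brain, is left out.

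*Igf2* encodes the fetal growth factor IGF2 and is the paternally expressed partner of *H19* on chromosome 7 (142650766 to 142666816, mm10, minus strand). It had only 13 to 23 counts in a brain. Exons of the overlapping gene *Gm49394* cover 80.5% of its coding bases, and that gene had 0 counts in every brain, so that most of the coding sequence could give no count to either gene. The level of *Igf2* can therefore not be read from its counts. Other members were touched in part, since other genes covered over 10% of the exon bases of 10 members. Of the coding bases, 96.8% were covered in *Usp29*, 57.9% in *Cdkn1c*, 41.4% in *Gnas*, 36.8% in *Snrpn* and 25.5% in *Ube3a*. The same exon bases are left out in all 8 brains, so within a gene the brains stay comparable on the bases that are counted.

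Members differed between the groups in both directions. Of the 34 members tested, 8 were called higher in stressed brains, against 6.49% of all genes tested, and 6 were called lower, against 7.27% of all genes. Either way this was 14 of 34, where 13.8% of all genes were called. The 14 called members came from 12 of the 16 loci. The set of all genes was not matched to the members in level, and the list was chosen with earlier results of these data known. The shares therefore do not show that imprinted genes respond more than other genes. The median size of the Log2FC was 0.088 over the members and 0.082 over all genes. Of 29 further imprinted genes tested, 13.8% were called, all lower. The 8 higher members were *H19*, *Cdkn1c* and *Copg2* of the maternally expressed class, *Peg12*, *Mest*, *Plagl1* and *Peg10* of the paternally expressed class, and *Grb10*. The 6 lower members were *Zim1*, *Meg3* and *Rian* of the maternally expressed class, *Nap1l5* and *Impact* of the paternally expressed class, and *Gnas*. All changes were small, with a Log2FC between 0.13 and 0.29 in size. The groups did not overlap in 12 of the 34 members, 4 with all stressed brains above all control brains and 8 with all below, against 8.2% and 8.22% of all genes. The median Log2FC was -0.0055 over the 34 members and 0.0015 over all genes tested.

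**Figure D2:**
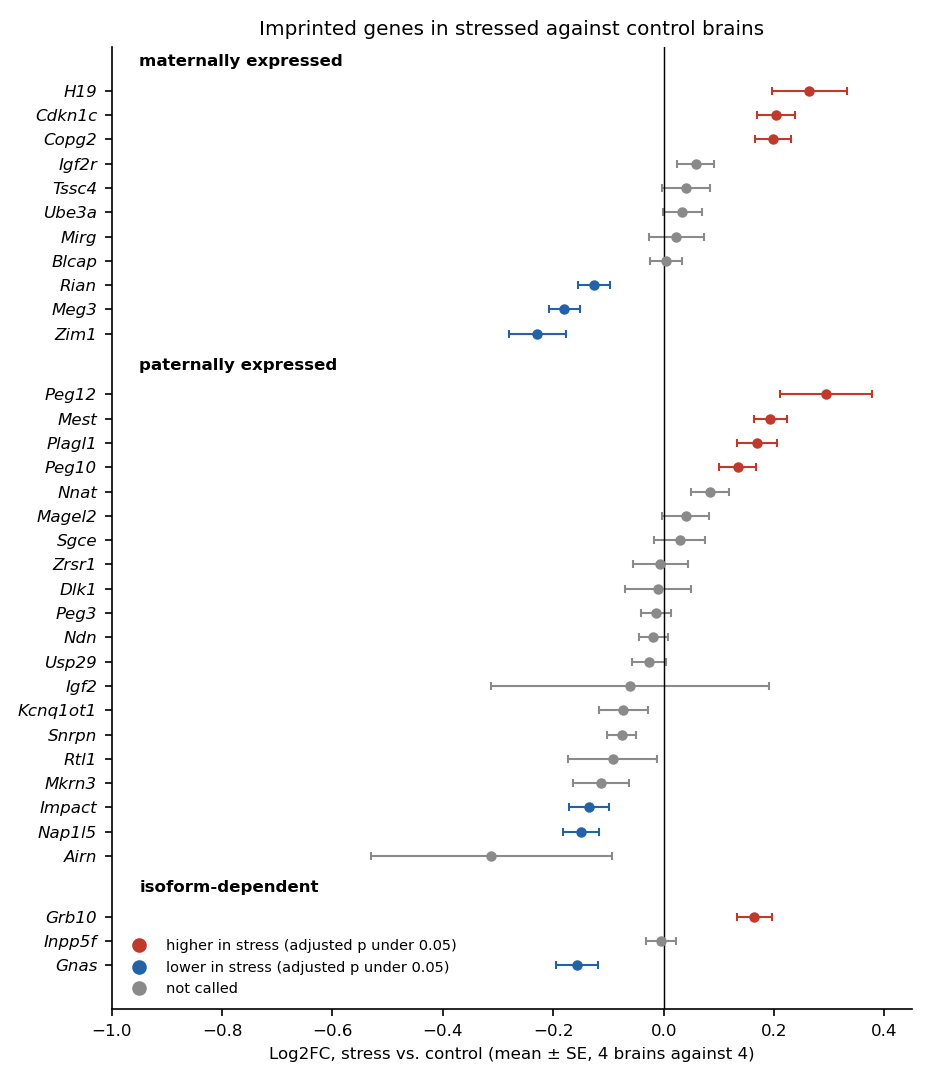
Log2FC (stress vs. control) of the 34 tested members with its SE, by parental class, from 4 brains against 4. Members called higher and members called lower stand in both large classes, and the widest error bars belong to *Igf2* and *Airn*, which have the fewest counts.

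Among the growth-restraining genes of the maternally expressed class, *Cdkn1c* rose. It encodes the cyclin-dependent kinase inhibitor p57, which lets progenitors leave the cell cycle, and lies on chromosome 7 (143458339 to 143461050, mm10, minus strand). Its level was 72.6 CPM in control F36, 71.5 in F37, 75.7 in M30 and 73.5 in M31, against 79.6 in stress F34, 84.4 in F35, 82.7 in M28 and 91.2 in M29. Every stressed brain was above every control brain, with stress M29 highest. The Log2FC was 0.20 ± 0.034 (SE, Padj = 0.000245). *H19*, the long noncoding RNA of the same chromosome (142575529 to 142578143) that restrains fetal growth, also rose. Its level was 35.2, 35.9, 43.5 and 33.9 CPM in control F36, F37, M30 and M31, and 46.9, 37.01, 51.6 and 42.6 CPM in stress F34, F35, M28 and M29. Here the groups overlapped, since control M30 was above stress F35 and stress M29. The Log2FC was 0.26 ± 0.068 (SE, Padj = 0.0093), and the call was lost without stress F34 (Padj = 0.0688), without stress M28 (Padj = 0.0656) and in DESeq2's Wald test (Padj = 0.197).

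*Copg2*, a coat protein gene of transport between the endoplasmic reticulum and the Golgi, was the third maternally expressed member to rise. It overlaps the end of *Mest* tail to tail on chromosome 6 (30747554 to 30896794, minus strand). The control levels were 77.8, 79.0, 80.0 and 79.7 CPM in F36, F37, M30 and M31, and the stress levels 87.4, 92.8, 94.7 and 88.3 CPM in F34, F35, M28 and M29. No stressed brain came down to the control range. The Log2FC was 0.20 ± 0.032 (SE, Padj = 0.000153). *Mest*, its paternally expressed partner (30723547 to 30748465, plus strand), which encodes a hydrolase-like protein of growing embryonic tissue, changed alongside. Levels were 92.5, 96.4, 93.7 and 94.4 CPM in the control brains F36, F37, M30 and M31, and 106, 104, 113 and 109 CPM in the stressed brains F34, F35, M28 and M29. The groups did not overlap and both stressed males were above both stressed females. For *Mest* the Log2FC was 0.19 ± 0.030 (SE, Padj = 0.000123), close to that of *Copg2*. Of the exon bases of *Mest*, 23.1% are also covered by *Copg2*, and of those of *Copg2*, 17.8% by *Mest*. Counting did not use strand, so a read antisense to *Copg2* on its other exons would count as *Copg2*. Whether the rise of *Copg2* is separate from that of *Mest* was not tested.

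Long noncoding RNAs of the *Dlk1*-*Meg3* cluster on chromosome 12 were the most abundant members to fall. *Meg3* (109541001 to 109571726, mm10, plus strand) is a maternally expressed nuclear RNA of neurons. It stood at 2757 CPM in control F36, 2732 in F37, 2616 in M30 and 2752 in M31, and at 2476 CPM in stress F34, 2584 in F35, 2267 in M28 and 2270 in M29. Every stressed brain was below every control brain, and the stressed males were lowest. The Log2FC was -0.18 ± 0.028 (SE, Padj = 0.000126). *Rian* (109603940 to 109661716), a host of small nucleolar RNAs and microRNAs downstream of *Meg3*, fell too. Its level lay at 929, 923, 931 and 935 CPM in control F36, F37, M30 and M31, and at 828, 914, 824 and 842 CPM in stress F34, F35, M28 and M29. Stress F35 lay just under the control range and the other stressed brains well below it. The Log2FC of *Rian* was -0.13 ± 0.029 (SE, Padj = 0.0042). *Mirg*, the last RNA of this maternal series, was not called (Log2FC 0.02 ± 0.050, SE, Padj = 0.82). Neither were the paternally expressed protein genes of the cluster, *Dlk1*, a Notch-related growth regulator (-0.01 ± 0.059, SE, Padj = 0.937), and *Rtl1*, a gene derived from a retrotransposon (-0.09 ± 0.081, SE, Padj = 0.515).

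In the *Peg3* cluster on chromosome 7, a single member was called. *Zim1* (6671269 to 6696450, minus strand), a maternally expressed zinc finger gene, fell from 32.4, 33.6, 37.1 and 35.5 CPM in control F36, F37, M30 and M31 to 30.5, 32.1, 28.3 and 27.5 CPM in stress F34, F35, M28 and M29. The groups did not overlap, though stress F35 was just under control F36, and the stressed males were lowest. The Log2FC was -0.23 ± 0.051 (SE, Padj = 0.00326). *Peg3*, the paternally expressed zinc finger gene that names the cluster (Log2FC -0.01 ± 0.028, SE, Padj = 0.805), and *Usp29*, a deubiquitinase-family gene (-0.03 ± 0.031, SE, Padj = 0.636), were not called.

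The growth regulators *Plagl1*, a zinc finger transcription factor that controls the cell cycle and other imprinted genes, and *Grb10*, an adaptor protein that damps signals of the insulin and IGF receptors, both rose. *Plagl1* (chromosome 10, 13060504 to 13131694) is paternally expressed. Its level was 95.3, 91.3, 105 and 98.7 CPM in control F36, F37, M30 and M31, and 110, 109, 103 and 116 CPM in stress F34, F35, M28 and M29. It overlapped between the groups at control M30 and stress M28. The Log2FC was 0.17 ± 0.037 (SE, Padj = 0.00259). *Grb10* (chromosome 11, 11930508 to 12038683) is maternally expressed in most tissues and paternally expressed from its own promoter in neurons. Levels were 136, 133, 146 and 135 CPM in control F36, F37, M30 and M31, and 154, 157, 148 and 157 CPM in stress F34, F35, M28 and M29. Its groups did not overlap, with control M30 and stress M28 nearest to each other. The Log2FC was 0.16 ± 0.032 (SE, Padj = 0.00092). Counts by gene sum both kinds of transcript.

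*Peg10* and *Peg12* rose as well, with calls that depended on single brains. *Peg10* (chromosome 6, 4747306 to 4760517), a retrotransposon-derived gene with a Gag-like protein, was at 197, 203, 177 and 202 CPM in control F36, F37, M30 and M31 and at 221, 217, 202 and 214 CPM in stress F34, F35, M28 and M29. Control M30 was low, and stress M28 was at the level of the upper control brains. The Log2FC was 0.13 ± 0.034 (SE, Padj = 0.0077), and without control M30 it was 0.09 with a Padj of 0.074. *Sgce*, the sarcoglycan gene that shares its promoter region, was not called (0.03 ± 0.046, SE, Padj = 0.744). *Peg12* (chromosome 7, 62461871 to 62464510), a relative of the FRAT genes whose proteins bind the kinase GSK3, rose from 8.48 ± 0.768 to 10.4 ± 1.07 CPM (SD, n = 4 each). That Log2FC was 0.29 ± 0.083 (SE, Padj = 0.0174) with overlapping groups, and the call was lost without control F37 (Padj = 0.0701), without control M31 (Padj = 0.0619), without stress F34 (Padj = 0.103) and without stress M29 (Padj = 0.0657).

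The other genes of the Prader-Willi and Angelman cluster, where loss of paternal or of maternal expression causes neurodevelopmental disease in people, were not called. *Snrpn* came nearest. Its level was 238, 242, 238 and 246 CPM in control F36, F37, M30 and M31 and 222, 224, 232 and 236 CPM in stress F34, F35, M28 and M29. All stressed brains were below all control brains, with a Log2FC of -0.08 ± 0.027 (SE, Padj = 0.057). *Mkrn3*, a ring finger gene that holds back puberty, was likewise lower in every stressed brain (18.3 ± 0.781 against 19.8 ± 0.204 CPM, SD, n = 4 each) with a Padj of 0.151. *Ndn* (Log2FC -0.02 ± 0.026, SE, Padj = 0.704), *Magel2*, a MAGE gene of the hypothalamus (0.04 ± 0.042, SE, Padj = 0.602), and *Ube3a*, the ubiquitin ligase that is maternally expressed in neurons (0.03 ± 0.035, SE, Padj = 0.601), moved by less than 2 SE.

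*Nap1l5*, a nucleosome assembly protein gene without introns on chromosome 6 (58905233 to 58907076, minus strand), was the clearest fall in the paternally expressed class. It was at 128, 125, 124 and 124 CPM in control F36, F37, M30 and M31 and at 106, 117, 110 and 118 CPM in stress F34, F35, M28 and M29. The groups were apart, and the 4 control brains lay closer together than the stressed ones. The Log2FC was -0.15 ± 0.033 (SE, Padj = 0.00291). *Impact*, an inhibitor of the translation-control kinase GCN2 that is abundant in neurons, fell from 57.5 ± 0.258 to 52.4 ± 2.25 CPM (SD, n = 4 each). All stressed brains were below all control brains (Log2FC -0.13 ± 0.036, SE, Padj = 0.0122). *Zrsr1*, a paternally expressed splicing factor gene within *Commd1*, was not called (Log2FC -0.0059 ± 0.050, SE, Padj = 0.958).

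*Gnas* encodes the stimulatory G protein alpha subunit and, from upstream promoters, the NESP55 and XLas proteins. It lies on chromosome 2 (174284320 to 174346744, plus strand). Its level was 98.2, 96.4, 103 and 97.3 CPM in control F36, F37, M30 and M31 and 93.6, 84.5, 93.2 and 82.5 CPM in stress F34, F35, M28 and M29. No stressed brain reached the control range, with stress F35 and M29 lowest. The Log2FC was -0.16 ± 0.038 (SE, Padj = 0.00585). Since *Gm20721*, with 2 to 8 counts, and *Nespas*, with 9 to 23, cover 41.4% of its coding bases, the level of *Gnas* comes from the remaining exons, and its products cannot be told apart here. *Nnat*, the most abundant member per kb, lies within an intron of *Blcap*, an oppositely expressed gene on the same chromosome. It ranged from 2432 to 2587 CPM in control brains and from 2459 to 2874 CPM in stressed brains, and was not called (Log2FC 0.08 ± 0.034, SE, Padj = 0.109). Without stress F35, the stressed brain with the lowest *Nnat*, the Log2FC was 0.13 and the Padj 0.00192. Without stress F34, the brain with the highest *Nnat*, the Padj was 0.449. With each brain left out in turn, the Log2FC of *Nnat* ranged from 0.043 to 0.13. In DESeq2's Wald test on all brains the Padj was 0.441. *Blcap* was not called (0.0046 ± 0.029, SE, Padj = 0.944).

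**Figure D3:**
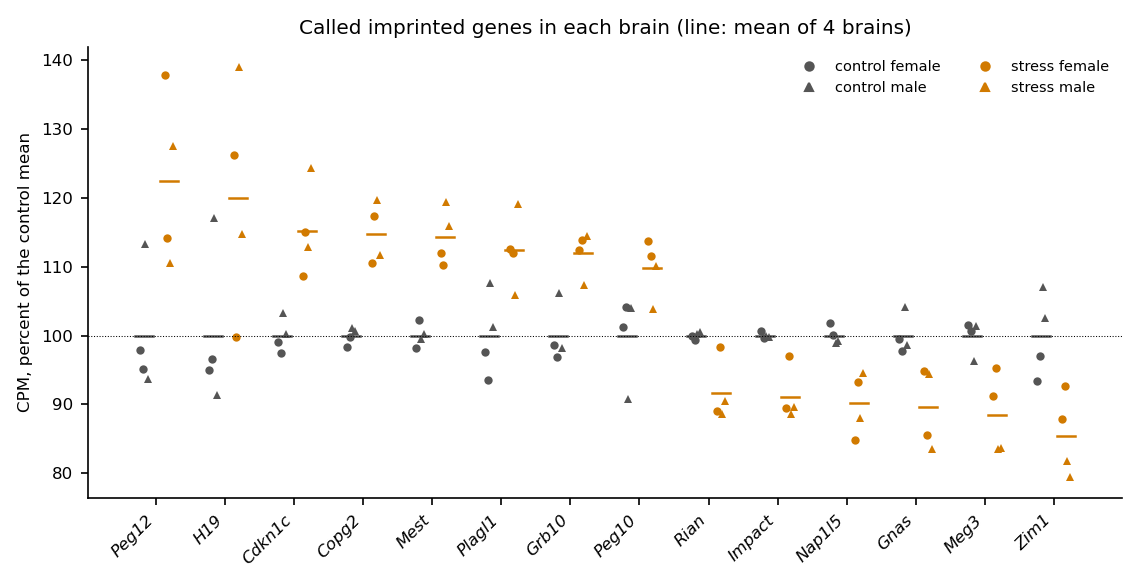
CPM of the 14 called members in each brain as a percent of the control mean of that gene, with circles for females, triangles for males and a line at the mean of the 4 brains of a group. *Peg12* and *H19* have the widest scatter, and *Rian* and *Impact* each have 1 stressed brain, F35, close to the control brains.

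Compared as classes, maternally and paternally expressed members were both called in each direction. Of the 11 maternally expressed members tested, 3 were called higher and 3 lower, with a median Log2FC of 0.03 (range -0.23 to 0.26). Of the 20 paternally expressed members tested, 4 were called higher and 2 lower, with a median of -0.016 (range -0.31 to 0.29). The maternal median minus the paternal one was 0.050, while the median size of the Log2FC was 0.088 over the members and 0.082 over all genes. The sign of that difference turned when stress F35 was left out (-0.0049) and when *Igf2r*, *Copg2*, *Ube3a*, *Blcap* and *Tssc4*, whose imprinting is partial or limited to some cells or isoforms, were left out (-0.035). Among the 3 isoform-dependent members *Grb10* rose, *Gnas* fell and *Inpp5f*, a phosphoinositide phosphatase gene, was not called (-0.01 ± 0.027, SE, Padj = 0.932).

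Summed counts were dominated by a few RNAs in each class. Maternally expressed members took 0.432%, 0.429%, 0.421% and 0.434% of all counts in control F36, F37, M30 and M31 and 0.398%, 0.419%, 0.378% and 0.378% in stress F34, F35, M28 and M29. All stressed brains were below all control brains. *Meg3* and *Rian* together made up between 81.8% and 85.2% of these counts. Without *Meg3* alone the share was between 0.1565% and 0.1597% in control and between 0.1499% and 0.1607% in stressed brains, with overlap. Without *Meg3* and *Rian* it was between 0.0639% and 0.0666% in control and between 0.0670% and 0.0693% in stressed brains. There all stressed brains were above, but both RNAs left out were called lower, so the direction depends on which members are left out. The counts that remain include *Blcap* and *Ube3a* (4600 and 3344 counts in control F36), whose imprinting is partial or limited to some cells or isoforms. Paternally expressed members took between 0.456% and 0.471% in control and between 0.460% and 0.501% in stressed brains, with overlap, and *Nnat* made up between 53.3% and 57.4% of them. Without *Nnat* the share was 0.213% ± 0.000687 in control and 0.214% ± 0.00268 in stressed brains (SD, n = 4 each).

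Within a locus, the ratio of the maternally expressed to the paternally expressed partner, per kb of exon, was compared in each brain for 8 pairs. In 6 pairs the groups overlapped. No share over pairs of other genes was computed, and of all single genes tested the groups did not overlap in 16.4%. The pairs that stood apart each hold a called member, *Cdkn1c* or *Zim1*, over a partner that was not called. Their ratios are therefore not results separate from those calls. The log2 ratio of *Cdkn1c* over *Kcnq1ot1*, the paternal antisense RNA that silences this cluster in cis, was 5.44, 5.58, 5.46 and 5.61 in control F36, F37, M30 and M31 and 5.83, 5.74, 5.79 and 5.83 in stress F34, F35, M28 and M29. It was higher in every stressed brain, by 0.27 on average. *Kcnq1ot1* itself was not called (Log2FC -0.07 ± 0.044, SE, Padj = 0.309). *Tssc4*, a maternally expressed splicing-related gene of the same cluster, was not called either (0.04 ± 0.043, SE, Padj = 0.609). For *Zim1* over *Peg3* the log2 ratio was -2.52, -2.53, -2.37 and -2.44 in the control brains and -2.66, -2.61, -2.68 and -2.76 in the stressed brains, in the same order. Here every stressed brain was lower. *Copg2* over *Mest* differed by 0.0049 between the group means, within the SD of 0.025 in control and 0.062 in stressed brains. *H19* over *Igf2* differed by 0.32 with overlapping groups, and rests on the few counts of *Igf2*. *Igf2r*, the receptor that takes up IGF2 for breakdown (Log2FC 0.06 ± 0.033, SE, Padj = 0.271), and *Airn*, the paternal RNA that silences it in other tissues (-0.31 ± 0.22, SE, Padj = 0.39), were not called, and their ratio overlapped between the groups.

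**Figure D4:**
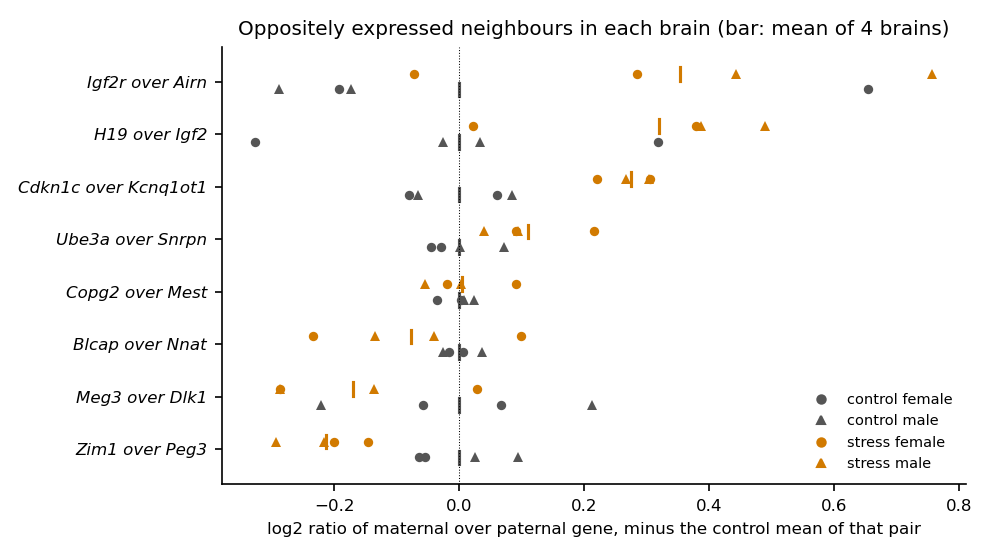
Log2 ratio of the maternally expressed over the paternally expressed gene of 8 pairs, per kb of exon, in each brain, minus the control mean of the pair. The stressed brains stand apart for *Cdkn1c* over *Kcnq1ot1* (higher) and *Zim1* over *Peg3* (lower), and overlap the control brains for the other 6 pairs.

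Females and males were then compared. No member was called for a difference of the stress response between the sexes (edgeR's interaction term), where 1 gene of 17865 was called (0.0056%). At an unadjusted p under 0.05 there were 3 of 34 members, against 6.31% of all genes, and DESeq2 called 0. These were *Zim1*, with a Log2FC of -0.08 in females and -0.38 in males (unadjusted p = 0.00143, edgeR), *Meg3*, with -0.12 and -0.24 (unadjusted p = 0.0138, edgeR), and *Airn*, with 0.19 and -0.79 (unadjusted p = 0.0216, edgeR). All 14 called members had the same sign in both sexes. They were called on the females and males of the same fit, which favours an equal sign. The share of equal signs among all called genes was not computed, so this count does not show agreement between the sexes. Males against females, 0 members were called, where 16 genes (0.0896%) were called in all. *H19*, *Meg3* and *Peg10* had an unadjusted p under 0.05 there, against 5.91% of all genes, and DESeq2 called 0.

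**Figure D5:**
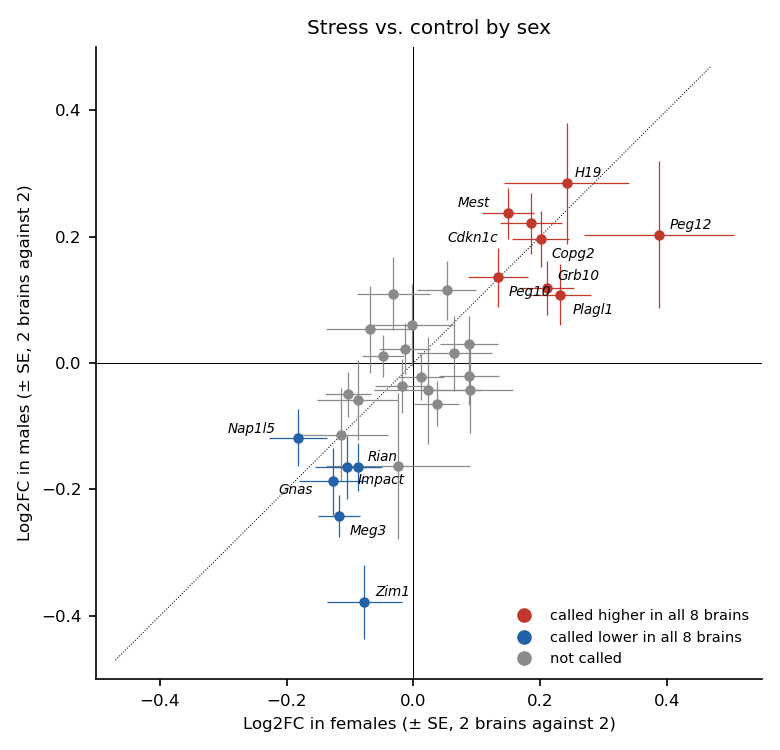
Log2FC (stress vs. control) in females against that in males with SE, 2 brains against 2 in each, for the tested members other than *Igf2* and *Airn*, whose error bars run past the axes; the dotted line marks equal values. The 14 called members lie in the quadrants of equal sign, which their call on the brains of both sexes favours, and *Zim1* lies farthest below the line.

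Genes that regulate imprints were read from a separate list. Of the 14 tested of 16, 2 were called higher and 1 lower, with a median Log2FC of 0.039. Over all genes 6.49% were called higher and 7.27% lower. Called in either direction were 21.4% of the regulators and 13.8% of all genes, a difference that was not tested and rests on few genes. *Uhrf1*, which brings the maintenance methyltransferase to newly copied DNA, rose from 47.2 ± 2.01 to 55.8 ± 3.62 CPM (SD, n = 4 each), with a Log2FC of 0.24 ± 0.042 (SE, Padj = 0.000315). *Hells*, a chromatin remodeller needed for DNA methylation, rose from 29.3 ± 0.782 to 34.8 ± 0.339 CPM (0.25 ± 0.040, SE, Padj = 0.00018). *Dnmt3a*, a de novo methyltransferase, fell (-0.11 ± 0.028, SE, Padj = 0.0114). *Zfp57* itself (-0.07, Padj = 0.0929), *Trim28* (0.02, Padj = 0.676), *Zfp445*, another zinc finger keeper of imprints (0.02, Padj = 0.753), and *Dnmt1*, the maintenance methyltransferase (0.03, Padj = 0.489), were not called.

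Among 34 further imprinted genes outside the 38, 29 were tested, 0 were called higher by edgeR and 4 lower, with a median Log2FC of -0.024. Of all genes tested, 6.49% were called higher, 7.27% lower and 13.8% in either direction. The 4 of 29 are 13.8%, all of them lower. They were *Kcnk9*, a maternally expressed potassium channel gene (-0.20 ± 0.043, SE, Padj = 0.00209), *Begain*, a postsynaptic gene beside *Dlk1* (-0.14 ± 0.034, SE, Padj = 0.00717), *Rasgrf1*, a paternally expressed exchange factor for Ras (-0.24 ± 0.066, SE, Padj = 0.0163), and *Cd81*, a tetraspanin gene of the *Kcnq1* cluster (-0.10 ± 0.030, SE, Padj = 0.0244).

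Marker genes of cell types moved with stress beside the members. Of 8 neuronal markers 0 were called higher and 5 lower by edgeR, of 9 radial glial markers 4 were higher and 0 lower, and of 8 endothelial markers 0 were higher and 5 lower. Over all genes 6.49% were called higher and 7.27% lower. The Log2FC was negative in 4 radial glial markers and positive in 1 neuronal marker. Radial glial markers summed to between 1575 and 1673 CPM in control and between 1609 and 1737 CPM in stressed brains. Neuronal markers summed to between 7017 and 7268 CPM in control and between 6848 and 7182 CPM in stressed brains, so both sums overlapped. Endothelial markers summed to between 164 and 183 CPM in control and between 146 and 155 CPM in stressed brains. Meningeal fibroblast markers (3 of 7 higher) summed to between 18.0 and 31.7 CPM in control and between 23.1 and 66.6 CPM in stressed brains. Those called higher were the collagen genes *Col1a1*, *Col1a2* and *Col3a1*, and 3 of the 7 had a negative Log2FC. Choroid plexus markers (1 of 6 higher) summed to between 6.21 and 14.5 CPM in control and between 5.91 and 36.6 CPM in stressed brains. The 1 called higher was *Ttr*, which gave 29.9 of the 36.6 CPM in stress F34, and 3 of the 6 had a negative Log2FC. Highest were stress M28 for the meningeal and stress F34 for the choroid plexus sum. Hypothalamic markers (2 of 7 higher) summed to between 67.9 and 77.1 CPM in control and between 77.0 and 82.9 CPM in stressed brains. Erythroid markers, 2 of 8 higher and 1 lower, summed to between 364 and 412 CPM in control and between 370 and 385 CPM in stressed brains. The higher ones were the embryonic globin genes *Hba-x*, which rose from 1.73 ± 0.358 to 3.71 ± 0.558 CPM (SD, n = 4 each, Log2FC 1.09 ± 0.15, SE, Padj = 2.21e-05), and *Hbb-y*, which rose from 3.36 ± 0.824 to 6.00 ± 0.765 CPM (Log2FC 0.84 ± 0.13, SE, Padj = 0.00012). In both, every stressed brain was above every control brain, and both Log2FC were larger than that of any called member. The part of these shifts in the changes of the imprinted genes was not tested.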

How the data were processed

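RNA of 8 E15.5 brains was sequenced, 1 library per brain. The deposited values are raw counts of read pairs on the exons of each gene, which the authors made, per the file headers and the submitters' processing notes, with TopHat2 2.1.1 on mm10 and featureCounts 1.6.3 with the GENCODE annotation. The counting command leaves strand, multi-mapping and overlap options at their defaults, so that reads of antisense or overlapping genes cannot be told apart by strand and read pairs that hit several genes alike are left out. The study's model also held a batch term, and its sample sheet names no batch for these libraries. Symbols were matched by gene identifier (54723 of 54752), and coordinates were read from the tables' own mm10 columns.

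Counts were filtered with edgeR's filterByExpr (minimum count 10), scaled by TMM factors and fitted with glmQLFit, then tested by glmQLFTest (R 4.3.3, edgeR 4.0.16), with sex and condition in the model and Benjamini-Hochberg adjustment over all 17865 genes tested. The SE is the size of the Log2FC divided by the square root of F. Shares of counts, partner ratios and class medians are descriptions with no test. The alternatives were DESeq2 1.42.0, other size factors, other filters, no sex covariate, stricter parental classes and each brain left out. On simulated data with 200 changed genes of 17865 at a log2 fold change of 0.5, the test recovered 78.5% for stress with 7 false calls, 55% for the interaction and 76.5% for sex. The simulation gave all genes the same dispersion. Called members changed by at most 0.294 in size, so these rates do not apply to changes that small. The 38 members, their parental classes (textbook knowledge) and all lists were chosen with earlier results of these data known. All members are named, called members with the value in each brain for the 12 smallest p. Promoter windows are from RefSeq (GRCm38.p6). Other animals of the study were not analysed here.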

Additional observations from a re-analysis of the deposited data

Results flagged for a closer look

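*Impact* stood out in 1 of the 4 stressed brains. Its level was 55.8 CPM in stress F35, while the other 3 stressed brains lay between 51.0 and 51.5 CPM, a gap of 0.886 of the range of the group, above Dixon's 95% critical value for 4 samples. Of the 68 groups of 4 brains examined over the 34 tested members, this was the only 1 marked, and chance marks about 1 group in 20. The 4 control brains had between 57.3 and 57.9 CPM.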

How the results depend on the processing

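Over the 34 tested members and the alternatives run, 462 of 474 Log2FC values stayed on their side of the threshold, 8 lost the call and 4 gained one. The sign turned in 24 values, all of the 10 members *Blcap*, *Dlk1*, *Igf2*, *Inpp5f*, *Magel2*, *Mirg*, *Peg3*, *Sgce*, *Ube3a* and *Zrsr1*, none of them called, and in 0 of the 196 values of called members. Besides the losses of *H19*, *Peg10* and *Peg12* and the gain of *Nnat* without stress F35 given above, *Nnat* was called with no filter on low counts (edgeR Padj = 0.00686), and *Snrpn* with a minimum count of 50 (Padj = 0.0474) and without control M30 (Padj = 0.049). When each brain was left out in turn, 6 to 9 members were called higher and 6 to 7 lower, and over all genes 736 to 1057 were called higher and 854 to 1308 lower, the lowest in both without stress M29. DESeq2 called 748 of all genes higher. The maternal median ranged from -0.0046 (without stress F35) to 0.059 (without stress M28), and its difference from the paternal median from -0.0049 to 0.076. With the stricter parental classes they were -0.051 and -0.035, and without the members overlapped by other genes 0.0046 and 0.017. With no filter on low counts, 1 member was called for sex. The causes were not tested. No paired analysis was possible because the groups share no replicate numbers. *Igf2* and *Airn*, the tested members with the fewest counts, have the widest errors, so small differences in them were not detectable at this depth. *Peg12* and *Rtl1* follow with an SE of 0.083 and 0.081.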
